A study of Mus musculus with 39 samples.

Results

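The genes described here are the cytoplasmic ribosomal protein genes of mouse subcutaneous adipose tissue, chosen by a rule on their names. A gene belonged to the group when its name on the array was Rpl or Rps followed by a number and at most 1 of the letters a, l, x or y, or was Rplp0, Rplp1 or Rplp2, which leaves out the ribosomal S6 kinases. This gave 80 of 29411 gene names, covered by 124 of 40628 probes. The large 60S subunit had 49 of them and the small 40S subunit had 31. Each gene was represented by its brightest probe. The tissue came from C57BL/6J mice that entered the study on weaning at 3 to 4 weeks of age and were followed for 18 weeks, in 5 diet groups. LFC mice ate a normal low fat diet (ND) with 10% of calories from fat, and HFC mice ate a high fat, high sucrose diet (HFHSD) with 60% of calories from fat. HF5, HF20 and HF75 mice ate that high fat diet with 5, 20 or 75 µg of KAL-1, an ethano-botanical formulation given in water. Each of the 39 arrays was hybridised with RNA of 1 diet at 1 time point. LFC had 10 arrays, of which 4 were early (at Days 6, 10 and 14, and at Week 0, where by the methods of the study the weeks are counted from Day 14, so that Day 14 and Week 0 are the same feeding time) and 6 late (in steps of 3 weeks from Week 3 to Week 18), HFC had these time points and Day 1 as well (11 arrays), and each KAL-1 dose had 6 arrays (Week 3 to Week 18). The sources used here do not say whether an array held 1 mouse or a pool. No test below takes its error from separate mice of 1 diet at 1 time point. The diet comparisons take it from the scatter over time points. The change per week and late against early treat the arrays of a time point as independent. Time cannot be told apart there from what those arrays share, and the p values can be too small.

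Ribosomal proteins coat the ribosomal RNAs and are needed in near equal amounts, so their mRNAs are among the most abundant of any cell and are usually made together. Their transcription starts within a pyrimidine tract, the terminal oligopyrimidine (TOP) start, through which the mTOR pathway and the protein LARP1 adjust how strongly the mRNAs are translated when nutrients or growth signals change. A few have a second gene with a narrower tissue range, such as Rpl3l of heart and skeletal muscle and Rpl10l and Rpl39l of testis.

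In a window from 20 bases before to 30 bases after the RefSeq transcript start (GRCm38.p6), CTTTC stood on the gene strand of 35.6% of the 59 members with a window and of 7.66% of 27025 genes, and on the other strand in 8.47% and 7.3%. CTTTT, searched in the same way, stood on the gene strand of 15.3% of the members and 5.98% of all genes and on the other strand in 3.39% and 5.75%, and either motif stood on the gene strand in 44.1% and 12.8%. A tract in which these letters are broken by other pyrimidines is not counted. The windows below run from 10 bases before the start and are shown for 3 members that carry a motif, for Rpl39l, in which the motif lies wholly before the annotated start, and for Rpl6 and Rpl3l, which the results return to. Capitals mark the motif, and a window with no capitals holds neither motif in these 30 bases. Rpl3l has a further start in the same table, which is not shown.
Rps27, chr3:90213629-90213658, minus strand: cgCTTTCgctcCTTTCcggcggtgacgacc
Rpl28, chr7:4792955-4792984, plus strand: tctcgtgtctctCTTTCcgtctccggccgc
Rplp2, chr7:141447641-141447670, plus strand: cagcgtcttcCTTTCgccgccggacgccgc
Rpl39l, chr16:10170218-10170247, plus strand: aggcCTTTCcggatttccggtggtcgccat
Rpl6, chr5:121204491-121204520, plus strand: acctcccgtcattgcttatagaccggaagc
Rpl3l, chr17:24727816-24727845, plus strand: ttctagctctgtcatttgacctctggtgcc

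Many of these probes were at the upper limit of the scanner. A level is given throughout as the log2 intensity of the probe minus the log2 of the 75th percentile of its array, so a level of 0 is that percentile. Of the 80 members, 49 were saturated on at least 1 array, 27 on over 19 arrays and Rplp1, a protein of the ribosomal stalk that recruits elongation factors, on all 39. A saturated spot stays at the limit of the scanner, so its level after scaling falls as the array gets brighter. The 75th percentile intensity ran from 108 scanner units on the LFC Week 18 array to 1285 on the HF75 Week 12 array. The LFC Week 18 array had 2 saturated members, the HF75 Week 12 array had 45, and the LFC Week 3 array had the most, 48. Rpl10l was well above background on 4 of 39 arrays and was not tested. This left 79 members tested, of which 30 were never saturated, and 28 of these were well above background on every array. The never saturated members are therefore given as well for the medians below.

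**Figure D1:**
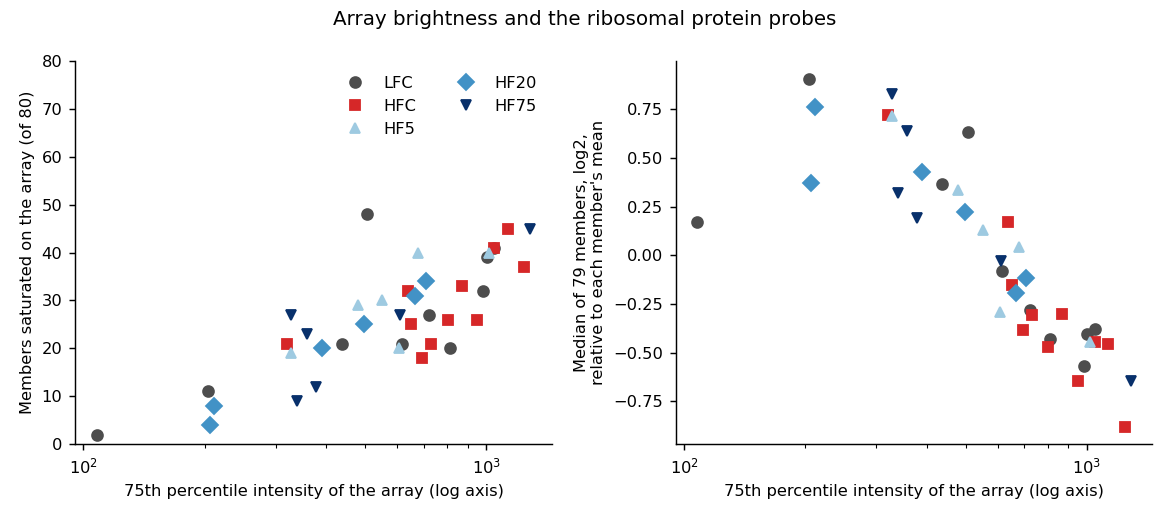
Each point is 1 array, with its 75th percentile intensity in scanner units on a log axis. The left panel counts the members that were saturated on the array, from 2 on the dimmest array to 48 on LFC Week 3. The right panel gives the median level of the 79 members relative to each member's own mean, on the log2 scale, which is lower on the brighter arrays.

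Some arrays stood apart. The 9 adipocyte markers were well above background on all 39 arrays. The 11 skeletal muscle markers, of which 4 were well above background on every array, had a summed log2 level of 10.97 on HF75 Week 3, 9.73 on HF5 Week 12, 9.5 on HFC Day 1, 8.9 on HFC Day 6 and 8.59 on LFC Day 6, against group medians of 3.74 to 4.63. Of the 10 lymphocyte markers, 9 were on the array and 1 was well above background on every array. Their summed level was 7.09 on LFC Week 3 and -1.2 to 4.27 on the other arrays. The deposited ratio table and the array labels disagree on HF5 and HF20 at Week 12. Each of these columns correlated at 0.999 with the array labelled as the other dose and at 0.664 to 0.665 with its own. Whether the table or the arrays are mislabelled is not known. Values of these doses are given as labelled, and the medians of the members and the HF20 count are also given with those 2 arrays exchanged. On some arrays the outer rows of spots were dim, as described with Rpl6.

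The members moved together from array to array. Over the 39 arrays the median correlation between members was 0.61 among the 79 and 0.47 among the 30 never saturated, against 0.001 among the 11119 genes that were never saturated and well above background on every array. These are descriptions, since all genes of an array share its scaling and the saturated members share its ceiling. Rps13, a small subunit protein, was closest to the rest, with a median correlation of 0.82 with the other members, and Rps19 and Rpl3l were farthest, at 0.06 and 0.09. Among never saturated members the median position relative to each gene's own mean was highest on LFC Week 3, at 1.13, the array with the most lymphocyte marker signal. The part of those cells in the value was not tested. It was lowest on LFC Week 18, at -0.79, the dimmest array, and on HFC Day 14, at -0.75, the second brightest. At Week 9 the LFC, HF5, HF20 and HF75 arrays lay between 0.43 and 0.67, and HFC lay at -0.17. The summed lymphocyte marker level was 3.24 to 4.27 on those 4 arrays and -0.04 on HFC Week 9, and that of the skeletal muscle markers was 4.34 to 6.25 and 0.59; the part of these cells in the difference was not tested. At Week 18 the order of the diets was different, with LFC lowest and HF75 (0.57) and HFC (0.5) highest.

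**Figure D2:**
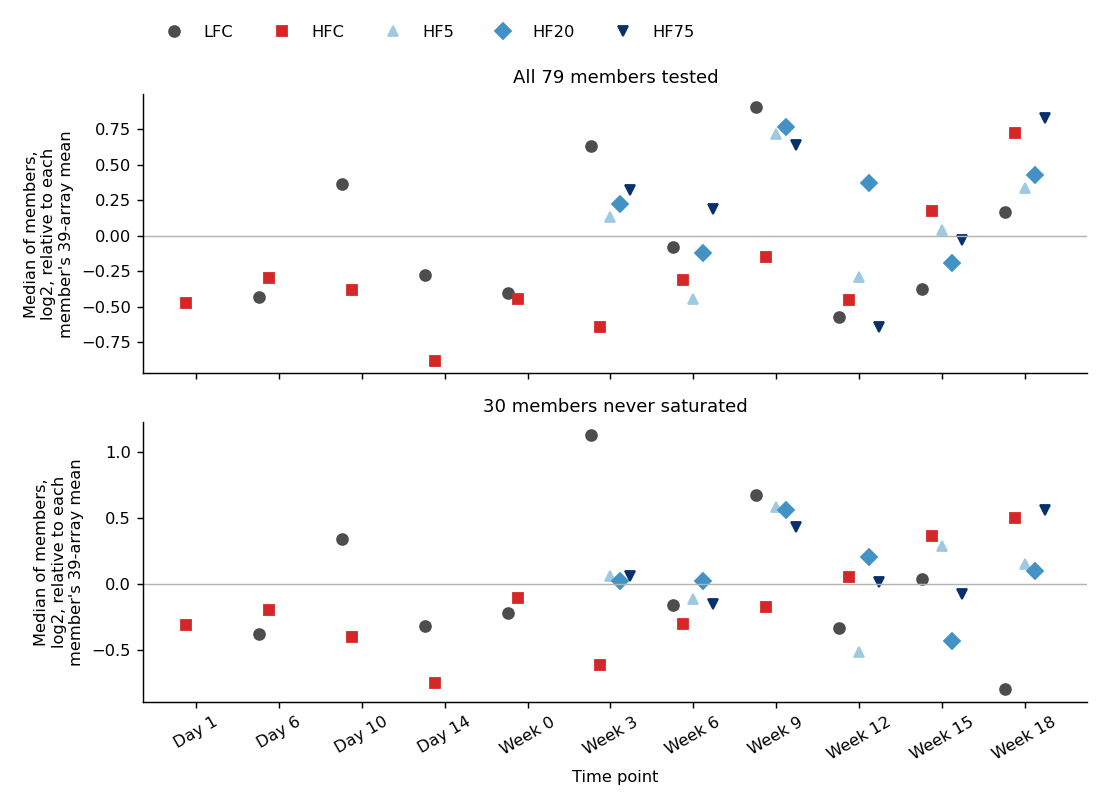
Median level of the 79 members tested (top) and of the 30 never saturated (bottom) on each array, on the log2 scale after subtracting each member's mean over the 39 arrays, by time point and diet. LFC Week 3 (1.13) and LFC Week 18 (-0.79) are the highest and the lowest arrays of the lower panel.

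The first comparison asks whether the high fat diet changed the level of ribosomal protein mRNA. At the 10 time points with an array of both diets no member differed between HFC and LFC, and 0 of 19871 genes (0%) did so in limma after Benjamini-Hochberg adjustment. At an unadjusted p under 0.05, 6 members were lower in HFC, none was higher, and 3.9% of all genes were lower. The count was 23 without Week 15, 1 without Week 9, and 0 with normexp background correction, quantile normalization or array brightness as a covariate. The estimates leaned to one side under the main scaling, with 2 of 79 above 0 (45.3% of all genes) and a median of -0.26, but the median was 0.007 after quantile normalization, with 42 above 0. The 30 never saturated members had a median of -0.21, which was -0.05 after quantile normalization and -0.03 with normexp background correction, and 0.02 without Week 3. By subunit the medians were -0.26 for 48 large subunit genes and -0.31 for 31 small subunit genes, and that of all genes was -0.04. The HFC array was the brighter of the pair at 9 of 10 time points, and with array brightness as a covariate the member median was -0.01, with 38 of 79 above 0. The part of brightness in the difference was not tested further. The summed macrophage level had a median of 5.63 in HFC (4.57 to 6.54) and 4.84 in LFC (4.19 to 6.08) and the skeletal muscle level one of 2.72 (0.59 to 8.9) and 4.37 (1.52 to 8.59), and the part of these cells was not tested. With Day 14 and Week 0 averaged as 1 time point the member median was -0.26, 3 members were lower at an unadjusted p under 0.05, and no gene passed.

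Single time points did not lie on one side. The members' median favoured HFC at 3 of the 10, and the medians ran from -1.11 at Week 3 to 0.52 at Week 18, with a mean of -0.26 ± 0.59 (SD, n = 10). At Week 3 and Week 9 nearly all members were lower in HFC (2 and 0 of 79 were higher), and at Week 15 and Week 18 most were higher (74 of 78 and 53 of 79). For the never saturated members the difference was -1.84 at Week 3, when the LFC array had the high lymphocyte signal, and 1.1 at Week 18, when the LFC array was the dimmest of all. Over Week 3 to Week 18 alone, 0 of 21092 genes (0%) passed in limma. In that period 6 of 79 estimates were above 0 (44.8% of all genes) and the median was -0.28, which became -0.01 without Week 3, with 39 above 0, and 0.03 after quantile normalization. The never saturated members had a median of -0.22 over this period, 0.12 without Week 3 and -0.02 after quantile normalization. Over these weeks the summed skeletal muscle level had a median of 1.56 in HFC (0.59 to 5.22) and 4.06 in LFC (1.52 to 6.25). The lymphocyte level had one of 0.48 (-0.69 to 2.77) and 1.16 (0.47 to 7.09). Over the 39 arrays the never saturated median correlated at 0.7 with the lymphocyte level and at 0.11 with the muscle level. The part of these cells in the difference was not tested.

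Rps25, a small subunit protein with a role in initiation at internal ribosome entry sites, had the smallest p. Its LFC level ran from 5.93 at Week 12 to 8.2 at Week 18 with a median of 6.62 over the 9 arrays with a value, and its HFC level at the same 10 time points from 5.6 to 7.55 with a median of 6.12. The ranges overlapped, while within a time point HFC was lower at 9 of 9. The log2 difference was -0.57 (SE 0.18, unadjusted p = 0.0104, adjusted p = 0.803 in limma). The probe was saturated on 8 of 10 HFC and 5 of 10 LFC arrays, so the size of the difference depends on the scanner limit, and it ran from -0.69 to -0.09 over the alternatives tried. Rplp1 was saturated on every array of both diets, and Rps20, Rpl41 and Rpl37a on every HFC array, so no size is given for these genes, which had the next smallest p. In the later period Rpl30, a large subunit protein that was never saturated, was among the 5 smallest p. Its level was 4.48 to 6.81 in LFC from Week 3 on, with the highest at Week 3, and 4.3 to 5.47 in HFC, and the difference was -0.48 (SE 0.27, unadjusted p = 0.0869, adjusted p = 0.85 in limma). It was -0.13 without Week 3. The diet effect did not differ between late and early time points in limma for any member or for any of 19871 genes (0%). The smallest unadjusted p among the members, 0.0386, was that of Rpl3l, for which the difference of the effects was -3.14 (SE 1.33), with -4.06 to -1.21 over the alternatives tried. The skeletal muscle markers had medians of 5.91 in HFC and 4.84 in LFC early on and of 1.56 and 4.06 late, and their part in the value was not tested. Rpl6, Rpl10 and Rpl4 had unadjusted p of 0.198 to 0.368.

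KAL-1 was compared with the high fat diet alone at each dose, and the comparisons share the HFC arrays. No gene passed in limma for HF5, HF20 or HF75 or for the doses together (0 of 21092 genes, 0%, in each), except that 7478 genes passed for HF20 with normexp background correction, none of them a member. The member medians were 0.18, 0.38 and 0.3, with 69, 71 and 72 of 79 above 0, beside 50.2%, 55.5% and 50.2% of all genes; the HF20 median turned to -0.13 with normexp background correction, the HF75 median to -0.01 after quantile normalization and the HF5 median to -0.01 with array weights and -0.04 where the slide replaced the time point. For the never saturated members the medians were 0.12, 0.18 and 0.15, and with normexp they were 0.07, -0.27 and -0.06. That correction moved the median of all genes as well, to 0.06, 0.34 and 0.23. With the 2 Week 12 arrays exchanged the medians of all members were 0.32 for HF5 and 0.24 for HF20, and those of the never saturated members 0.27 and 0.03. For the doses together the median was 0.29 with 73 of 79 above 0 (52.6% of all genes), and 4 members were higher at an unadjusted p under 0.05 (2.56% of all genes). This count was 17 without Week 18 and 0 without Week 3 or Week 9, with normexp or after quantile normalization. The median for the doses together was 0.05 with normexp, and that of the never saturated members was 0.15, or -0.09 with normexp.

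At HF20, 14 of 79 members were higher than in HFC at an unadjusted p under 0.05 (3.01% of all genes). None of them held an adjusted p under 0.05, and the count was 2 with the Week 12 arrays exchanged and 0 without Week 3, Week 9 or Week 12. Leaving out Week 6 gave 13, Week 15 gave 25 and Week 18 gave 29. With normexp background correction 0 were higher and 4 lower. The count was also 0 with quantile normalization, 50th percentile scaling, array weights, array brightness as a covariate or the scan day as a block. The HF20 arrays were the dimmer of the pair at 4 of 6 time points and had 4 to 34 saturated members, against 21 to 45 for HFC at the same weeks. By time point the median of the members was higher in HF20 than in HFC at 4 of 6, with a mean of 0.38 ± 0.59 (SD, n = 6). For HF5 it was higher at 3 of 6 (0.18 ± 0.52, SD, n = 6) and for HF75 at 4 of 6 (0.32 ± 0.5, SD, n = 6). In each dose Week 3 and Week 9 gave differences of 0.77 to 0.91, the same time points at which HFC was farthest below LFC. HFC was the brighter array in each of these pairs. The log2 ratio of the 75th percentiles, dose to HFC, was -1.49 to -0.79 at Week 3 and -1.62 to -0.86 at Week 9. With array brightness as a covariate the member medians over all 6 weeks were 0.11 for HF5, 0.12 for HF20 and 0.12 for HF75. The part of brightness was not tested further. At Week 9 the HFC array was also the one with the low lymphocyte and muscle marker levels given above. At Week 3 the summed muscle level was 1.46 on HFC, 2.91 on HF5, 3.29 on HF20 and 10.97 on HF75. Over Week 3 to Week 18 the summed lymphocyte level had a median of 0.48 in HFC, 1.69 in HF5, 2.1 in HF20 and 0.19 in HF75. The part of these cells was not tested. The differences at Week 15 were -0.09 to -0.33.

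Rps13 was among the 5 smallest p at each dose. Its level in HFC was 6.12 at Week 3, 6.1 at Week 6, 6.6 at Week 9, 5.8 at Week 12, 6.45 at Week 15 and 7.42 at Week 18. In HF20 it was 7.05, 6.52, 7.47, 6.91, 6.65 and 7.3 at the same weeks, higher at 5 of 6. The groups overlapped, since HFC Week 18 was second only to HF20 Week 9 and HFC Week 9 lay above HF20 Week 6. The log2 difference was 0.57 (SE 0.23, unadjusted p = 0.0224, adjusted p = 0.997 in limma), with 2 HF20 and 3 HFC spots saturated; it was -0.05 with normexp, and the other probe of Rps13 gave -0.01. The difference was 0.31 (SE 0.23) at HF5 and 0.44 (SE 0.23) at HF75, with 0.04 to 0.47 and 0.03 to 0.56 over the alternatives tried. Rps14 and Rpl7a were saturated on all 6 HFC arrays, and Rps12 on all arrays of both diets, so no size is given. At HF5 the smallest p was that of Rps27a, a fusion of ubiquitin and a small subunit protein, with a difference of 0.38 (SE 0.21, unadjusted p = 0.0821, adjusted p = 1 in limma), and 0.15 to 0.56 over the alternatives tried.

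**Figure D3:**
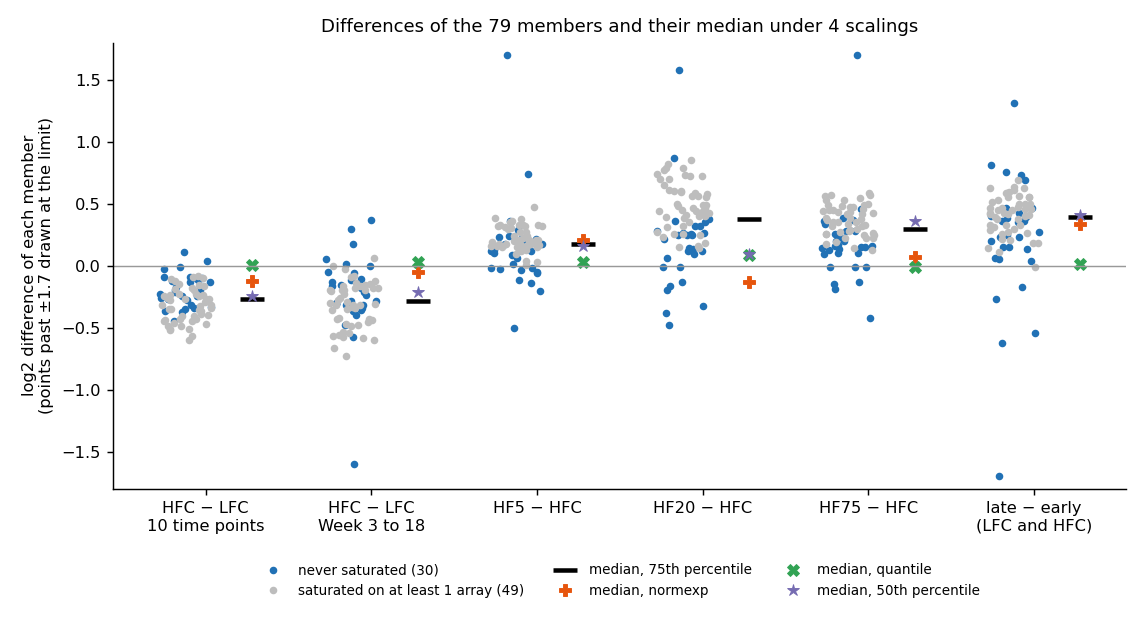
Log2 difference of each of the 79 members in 6 comparisons, with never saturated members in blue and the others in grey, and the median of the 79 under 4 scalings. The black bars lie at -0.26 for HFC against LFC, 0.18 to 0.38 for the KAL-1 doses and 0.39 for late against early, and under another scaling the medians of HFC against LFC, HF20 and HF75 cross 0.

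Late time points (Week 3 to Week 18) were then compared with early ones (Day 6 to Week 0) in LFC and HFC together. In limma 44 of 19876 genes (0.221%) passed and no member did, with the arrays of a time point treated as independent. The count of genes was 3 with normexp and without Day 6, Day 10 or Week 15, and up to 270 with array weights. At an unadjusted p under 0.05, 10 members were higher at late time points (6.42% of all genes) and none was lower. Leaving out each time point gave from 1 higher and 1 lower (without Day 14) to 25 higher (without Week 12). Of the 79 estimates 73 were above 0 (48.7% of all genes), with a median of 0.39, which stayed above 0 under each scaling but was 0.01 after quantile normalization and 0.1 with array brightness as a covariate. For the never saturated members 25 of 30 were above 0 and the median was 0.26, with 0.12 after quantile normalization and 0.23 with normexp. The median of all genes was -0.01. The late arrays had 75th percentiles of 108 to 1130 with a median of 644 scanner units and the early ones 438 to 1243 with a median of 840. The summed skeletal muscle level had a median of 2.34 on the late and 4.93 on the early arrays (0.59 to 6.25 and 1.62 to 8.9), the macrophage level 5.41 and 4.72 (4.29 to 6.54 and 4.19 to 6.43), and the level of the epithelium and skin markers 0.78 and 1.63 (-1.53 to 5.08 and -0.41 to 4.17). The part of these cells in the difference was not tested. With Day 14 and Week 0 averaged as 1 time point 9 genes and no member passed, 7 members were higher and 2 lower at an unadjusted p under 0.05, and the member median was 0.35. The age of the mice and the time on the diet cannot be told apart in this comparison.

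Rps15, a protein of the head of the small subunit that was never saturated, had the smallest p. Its level was 2.18 to 3.13 with a median of 2.79 on the 8 early arrays and 2.57 to 4.33 with a median of 3.45 on the 12 late ones. The groups overlapped in the range from 2.57 (HFC Week 3) to 3.13 (LFC Day 10 and Day 14). The log2 difference was 0.76 (SE 0.23, adjusted p = 0.167 in limma) and ran from 0.68 to 0.86 when each time point was left out. Rpl30 was 4.08 to 4.98 on the early and 4.3 to 6.81 on the late arrays, with a difference of 0.69 (SE 0.27, adjusted p = 0.287 in limma). Rpl13a, a large subunit protein that can also leave the ribosome to repress translation of inflammatory mRNAs, was 3.78 to 5.5 early and 4.46 to 6.85 late, with a difference of 0.73 (SE 0.3, adjusted p = 0.305 in limma). Its probe lies in row 529, in the outer rows that were dim at Day 10 and Day 14 as described with Rpl6, and its lowest early values fell on HFC Day 10 (4.08), LFC Day 14 (3.78) and HFC Day 14 (4.12). The part of those rows was not tested. The difference ran from 0.45 to 0.92 when each time point was left out. Rps3a and Rpl17 completed the 5 smallest p, with differences of 0.59 and 0.61, which ran from 0.13 to 0.68 and from 0.37 to 0.76 over the alternatives tried.

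Within Week 3 to Week 18, 20 of 21092 genes (0.0948%) changed with the week in limma, 5 upward and 15 downward, and Rpl6, a protein of the large subunit, was the only member among them. Without Week 3, 2894 of 21213 genes passed, with 4 members upward and 1 downward, and with array weights 489 genes passed. The member median was 0.013 per week, with 55 of 79 above 0 (55.6% of all genes), and -0.002 per week for the never saturated members; the median of the 79 turned to -0.005 with 50th percentile scaling, -0.003 with array brightness as a covariate and -0.019 without Week 18, when 12 were above 0. At an unadjusted p under 0.05, 1 member had a slope above 0 and 2, Rpl6 among them, had one below 0, beside 9.25% and 6.28% of all genes. The slope of the members within a diet had a median of -0.051 per week in LFC and 0.073 in HFC. In LFC the highest and the lowest never saturated arrays of all 39 are the first and the last week, and the difference between the 2 diets was not tested.

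The Rpl6 result came from 1 of its 2 probes. Both lie in the coding sequence and they share no run longer than 6 bases. Probe 1, the brighter one, sits in row 530 of the 532 rows of the array and probe 2 in row 458.
Rpl6 probe 1: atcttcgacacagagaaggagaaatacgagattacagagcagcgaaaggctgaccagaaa
Rpl6 probe 2: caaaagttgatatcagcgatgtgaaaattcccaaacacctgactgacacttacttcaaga

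Probe 1 fell by 0.15 per week (SE 0.028, adjusted p = 0.0419 in limma), and probe 2 had a slope of -0.021 per week (SE 0.018, adjusted p = 0.562). For probe 1 the level over the 5 diets was 5.22 to 7.05 at Week 3, 5.28 to 5.72 at Week 6, 4.99 to 6.24 at Week 9, 4.09 to 5.58 at Week 12, 2.51 to 4.83 at Week 15 and 2.34 to 5.28 at Week 18. The low values at the end were HF20 (2.51) and HF75 (3.15) at Week 15 and LFC (2.34) at Week 18, and HFC stayed between 4.81 and 5.58 at all 6 weeks. Probe 2 was 3.75 to 5.62 at Week 3 and 3.04 to 4.46 at Week 18, and its highest and lowest arrays, LFC Week 3 and LFC Week 18, are those where the never saturated members were highest and lowest.

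By diet the slope of probe 1 was -0.262 per week in LFC, -0.113 in HF5, -0.189 in HF20, -0.174 in HF75 and -0.011 in HFC, with 6 arrays each and adjusted p of 0.392 to 1 in limma. Over all 39 arrays, with the early days included, the slope was -0.04 per week (adjusted p = 0.529), and probe 1 was also low early on, at -0.45 on HFC Day 10 and 2.7 on LFC Day 10, and its late against early difference was 1.32 (SE 0.69, adjusted p = 0.416 in limma). It had an outlier flag and no value on HFC Day 1 and LFC Day 14. Without Week 6, 9, 15 or 18 the adjusted p of the slope was 0.0797 to 0.467.

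The spots around probe 1 were also low on several of the arrays where it was low. The median of the 176 spots in rows 528 to 532, relative to each spot's own mean, was 0.23 to 0.32 on average at Week 3 to Week 12, -0.21 at Week 15 and -0.24 at Week 18. It was -0.63 on HF20 Week 15 and -0.58 on LFC Week 18, and -0.65 on average at Day 10, -0.82 at Day 14 and -1.16 on Day 1. Several arrays went the other way. HFC Day 14 had probe 1 at 4.94, above its mean of 4.79, and the spots at -0.36. Among the arrays with probe 1 below its mean and the spots above 0 were LFC Week 12 (4.09 and 0.06), HFC Day 6 (4.41 and 0.19) and HF5 Week 18 (4 and 0.04). Of the 125 genes tested in these rows 76.8% had a slope below 0, against 44.4% of all genes, and 9 of the 20 genes called lie in the outer 5 rows or columns, which hold 12.9% of the genes tested, all 9 downward. The 5 genes with the highest correlation with Rpl6 over the 37 arrays that have a value were Gm4974, Igbp1, Ntan1, Gm6010 and Gm15653 (r of 0.777 to 0.788), in rows 528, 531, 3, 9 and 528. The median correlation of the other members with Rpl6 was 0.16. The 13 members with a spot in the outer 5 rows or columns had a median slope of -0.015 per week, and the other 66 had 0.013. With the outer 5 rows and columns left out, probe 2 stood for Rpl6, and no member and 0 of 19092 genes passed.

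**Figure D4:**
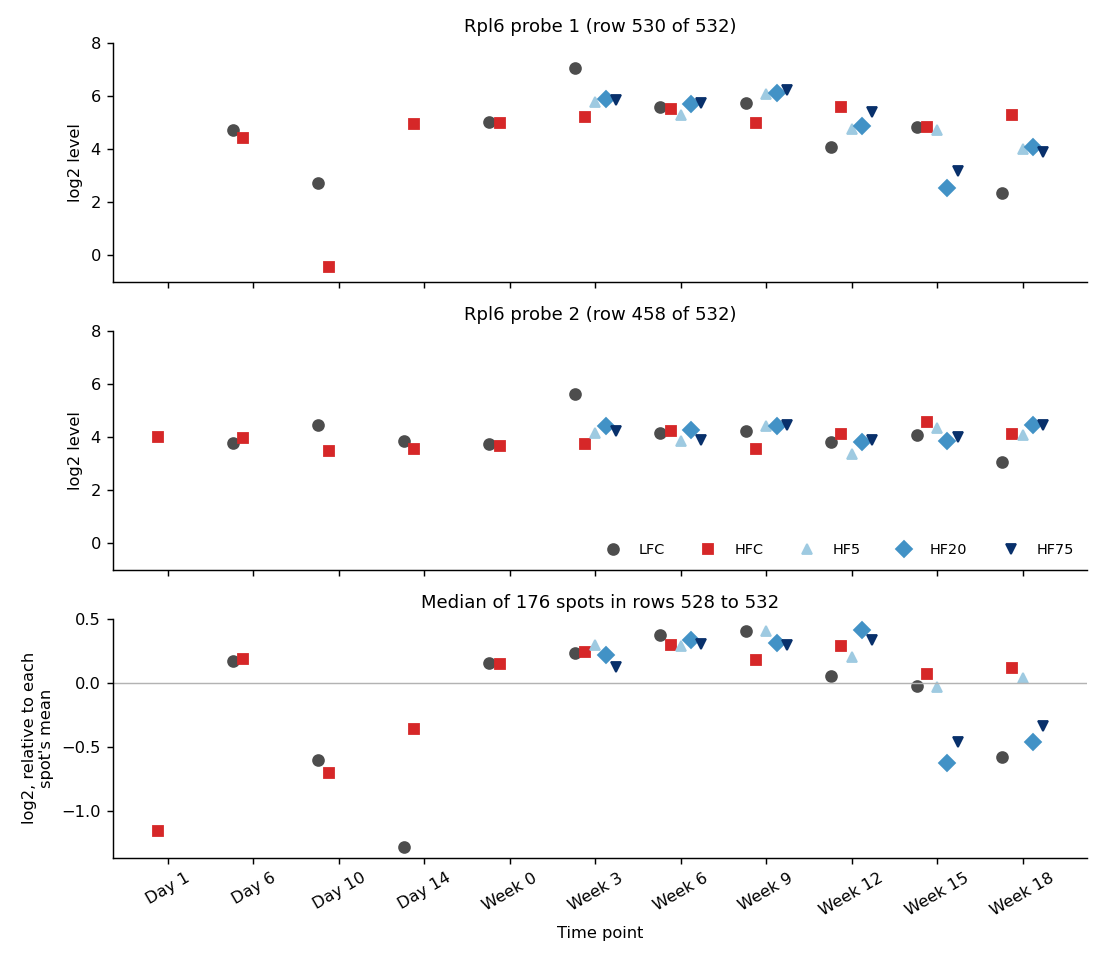
Log2 level of Rpl6 probe 1 (top) and probe 2 (middle), and the median of the 176 spots in rows 528 to 532 relative to each spot's own mean (bottom), on each array by time point and diet. Probe 1 and the edge spots are low at Day 10 and on LFC Week 18, HF20 Week 15 and HF75 Week 15, and probe 2 stays between 3.04 and 5.62.

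Rplp0, the stalk protein that anchors Rplp1 and Rplp2 and a common reference gene in quantitative PCR, also has a pair of probes, which share a run of 54 of their 60 bases. The brighter probe, in row 500 and column 39, was saturated on 34 arrays. The other, in the last of the 85 columns, was saturated on 24, and it read 1.28 on HFC Day 1 and 3.52 to 4.07 at Day 14, where the brighter probe read 6.38 and 5.78 to 6.62. Rplp2 was saturated on 38 arrays and Rplp1 on all 39, so the stalk proteins give little beyond a lower bound.

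Rpl3l and Rpl39l had the largest SD of the level over the 39 arrays among the members, 3.47 and 1.93, and Rpl6 came next with 1.37. Rpl3 lies close to the centre of the large subunit where peptide bonds are made, and Rpl3l takes its place in striated muscle.
Rpl3 probe: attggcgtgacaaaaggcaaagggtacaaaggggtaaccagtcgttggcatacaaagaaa
Rpl3l probe: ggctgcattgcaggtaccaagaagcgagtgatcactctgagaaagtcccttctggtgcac

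Rpl3l was well above background on 25 of 39 arrays. Its level was 6.35 on HF75 Week 3, 6.03 on HFC Day 1, 2.7 on HF5 Week 12, 2.08 on HFC Day 6 and 0.1 on LFC Day 6, and below 0 on the other 34. These 5 arrays are the 5 with the highest summed level of the skeletal muscle markers, and their group medians for Rpl3l were -5.55 to -4.24. Rpl3 was lowest on 2 of them, at 2.66 on HF75 Week 3 and 3.57 on HFC Day 1, while it lay between 4.27 and 6.16 on the other 37. Fewer cells of a type and less RNA per cell cannot be told apart in this tissue RNA. The diets overlapped for Rpl3l, with the HFC arrays running from -8.45 to 6.03 and the LFC arrays from -7.74 to 0.1.

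**Figure D5:**
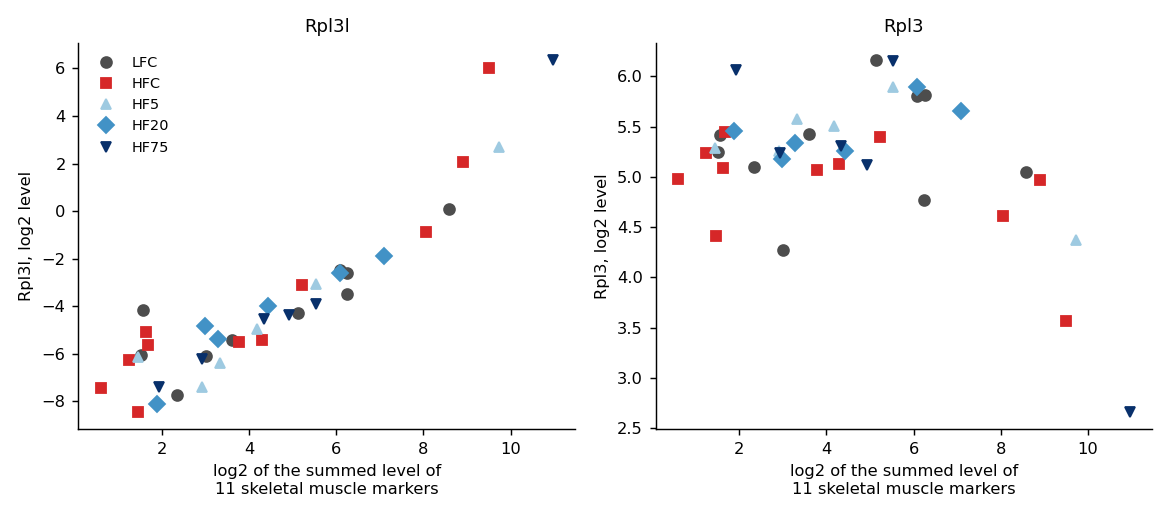
Log2 level of Rpl3l (left) and Rpl3 (right) on each of the 39 arrays against the log2 of the summed level of 11 skeletal muscle markers, by diet. Rpl3l is above 0 on the 5 arrays with the most muscle marker signal, and Rpl3 is lowest on HF75 Week 3 (2.66) and HFC Day 1 (3.57).

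Rpl39l was well above background on 37 arrays. Its slope from Week 3 to Week 18 was 0.178 per week (SE 0.07, adjusted p = 0.242 in limma) and did not pass. At Week 6 it was -6.64 in LFC, -5.47 in HFC, -5.1 in HF75, -4.92 in HF5 and -1.28 in HF20, and it was also low on HFC Week 9 (-5.08) and HF75 Week 3 (-4), against a median of -0.33 over all arrays. From Week 12 to Week 18 its 15 values lay between -0.83 and 0.89. Its dimmer second probe was also lowest on average at Week 6, with a mean of -7.43 against -5.31 over all arrays. It ran from -8.64 to -6.05 there, while Rpl10l, well above background on 4 of 39 arrays, ran from -8.34 to -7.41 on the same arrays. So near the floor, the second probe cannot show a fall at Week 6. Rpl39 itself, a small protein that lines the exit tunnel of the nascent chain, ran from 5.04 to 5.64 at Week 6, and from 5.04 to 6.99 over all arrays. Rps27l, a target of p53, was never saturated and ran from 3.25 on LFC Week 6 to 5.87 on HF75 Week 3, the array with the most muscle signal. Rps27 was saturated on 33 arrays and Rps4x on 25. Rpl10, in the second column of the array, ran from 2.76 on HFC Day 10 to 6.18 on LFC Week 3, and Rpl10l was at -8.94 to -2.5.

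Other genes of ribosome production and translation were read from lists chosen by function, and no gene of these 7 lists passed the test in any of the comparisons. In the contrast of HFC with LFC, 3 of 18 other genes with a TOP start, most of which also stand in another of the lists, were above 0 (median -0.18), 24 of 58 genes of ribosome assembly and ribosomal RNA synthesis (median -0.06), 21 of 42 initiation factors (median 0.002), 4 of 10 elongation factors (median -0.12), 11 of 15 regulators of ribosomal protein synthesis (median 0.14), 3 of 7 ribosomal proteins outside the naming pattern (median -0.13) and 32 of 75 mitochondrial ribosomal proteins (median -0.03), beside 45.3% of all genes. Of these medians only that of the assembly genes kept its sign under each scaling, with array weights and with array brightness as a covariate. For late against early time points the TOP genes had 16 of 18 above 0 (median 0.22) and the assembly genes 37 of 58 (median 0.14). The mitochondrial ribosomal proteins had 7 of 75 above 0 (median -0.38), beside 48.7% of all genes. The TOP median turned to -0.04 after quantile normalization. The other 2 kept their sign under each scaling, with array weights and with array brightness as a covariate (0.12 to 0.23 and -0.42 to -0.3). Relative to each gene's own mean, the mitochondrial median was 1.24 to 1.27 at Day 6 and 0.45 to 0.79 at Day 10. At Day 14 and Week 0 it was -0.51 to -0.23. The summed skeletal muscle level was 6.08 to 8.9 at Day 6 and Day 10, and 1.62 to 3.77 at Day 14 and Week 0. The part of muscle RNA in the difference was not tested. For HF5, HF20 and HF75 against HFC 15, 12 and 72 of the 75 mitochondrial ribosomal proteins were above 0 (medians of -0.12, -0.2 and 0.3), beside 50.2%, 55.5% and 50.2% of all genes; the HF75 median turned to -0.03 with array weights. With the Week 12 arrays exchanged, 15 were above 0 for HF5 (median -0.09) and 6 for HF20 (median -0.24). Over Week 3 to Week 18 the summed skeletal muscle level had a median of 1.56 in HFC, 3.74 in HF5, 3.86 in HF20 and 4.63 in HF75. It reached 10.97 on HF75 Week 3 and 9.73 on HF5 Week 12. The part of muscle RNA in these dose differences was not tested.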

How the data were processed

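Total RNA was labelled with Cy3 and hybridised to 1-colour Agilent arrays (39 arrays on 36 slides, scanned on 14 days). Per the file headers, the deposited intensity values are processed signals of Feature Extraction 10.5.1.1, background subtracted and detrended within the array, while the submitters' processing notes name version 9.1. The deposited flags are 0 or 1 per spot (other: well above background, saturated, outlier). The authors' log2 ratios, each relative to LFC at its own time point, were used as an alternative. On the Week 9 arrays 35.2% to 46.1% of the intensities were whole numbers (up to 0.107% elsewhere), and gene names there had become dates, so names were taken from the other arrays.

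Here log2 intensity minus the log2 75th percentile of the array was used, without outlier spots, with spots of a probe averaged and the brightest probe kept per gene name. Genes well above background on at least 10 of 20 arrays (LFC and HFC) or 6 of 30 arrays (all diets, Week 3 to Week 18) were tested with limma 3.58.1 (R 4.3.3), two-sided, Benjamini-Hochberg over all genes, threshold 0.05. Diet comparisons had the time point as a block. Slope and late against early had the diet as a term and treated the arrays of a time point as independent. The time point pairs arrays of different diets and marks a shared age and feeding time. The p values measure scatter between arrays, and the number of arrays limits precision. The fits were run on simulated data with independent noise for each gene and array. That run holds no saturation and no effect shared by a week, an array or its edge, so it does not test the p values under these. Members, gene lists and tests were chosen with earlier results of these data known. Named were members that passed, otherwise the 5 smallest p, plus Rpl6, paralogs with their parents, stalk proteins and dim members. A few results of this rule are not reported here. Promoter windows are RefSeq's (GRCm38.p6, 59 members matched); the array annotation uses mm9, so no gene coordinates are given. Alternatives chosen after seeing the data were leaving out the outer 5 rows and columns, the brightest never saturated probe, exchanging the Week 12 arrays of HF5 and HF20, and averaging Day 14 and Week 0.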

Additional observations from a re-analysis of the deposited data

Results flagged for a closer look

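In 5 of 76 groups of 4 to 10 values the highest or lowest stood far from the others. Chance alone does so in about 1 of 20 groups. The groups were levels of some genes named above and medians of the members within a diet, and differences between diets by time point. HFC, with 11 arrays, was not screened as a group of its own. Rpl39l was -6.64 on LFC Week 6, with the next lowest LFC array at -1.56, and -4.92 on HF5 Week 6, with the next at -0.69. Rpl3l was 6.35 on HF75 Week 3, with the next highest HF75 array at -3.93, and Rpl3 was 2.66 on the same array, with the next lowest at 5.12. Rpl10 was 3.97 on HF5 Week 12, with the next lowest at 5.01; the deposited ratio table places this array with HF20.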

How the results depend on the processing

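No member passed under any alternative for the diet comparisons, for late against early or for the difference of diet effects. For the change per week the 1 member that passed was lost (0 members) with normexp background correction, no filter, the mean of all probes, the slide as a random block, all 39 arrays, the next brightest probe, the outer rows and columns left out, or a slope within a single diet (LFC, HFC, HF5, HF20, HF75). The Rpl6 slope was then -0.157, -0.15, -0.0853, -0.155, -0.0401, -0.021 and -0.021, and within those diets -0.262, -0.011, -0.113, -0.189 and -0.174. With normexp, no filter, the mean of all probes and the slide block its adjusted p in limma was 0.0589, 0.0675, 0.13 and 0.0768. The member median per week was -0.0509 within LFC and 0.0729 within HFC. Leaving out each time point gave 0 to 5 members for the change per week and an Rpl6 slope of -0.17 to -0.135; the 5 came without Week 3, with 4 upward, when 2894 of 21213 genes passed, and the cause was not tested.

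Without the time point as a block (no replicate block) the member median was -0.27 for HFC against LFC and 0.18, 0.38 and 0.3 for the doses, and the block changed no call. Leaving out each time point moved the medians between -0.369 and -0.15 for HFC against LFC, between -0.44 and -0.00912 for Week 3 to Week 18, between 0.0467 and 0.294 for HF5, 0.246 and 0.521 for HF20, 0.216 and 0.41 for HF75, and 0.267 and 0.514 for late against early. With the scan day as a block the median for HFC against LFC was -0.37. Reversed single genes were Rpl27 at HF5 with the slide block (-0.00514), Rps13 at HF20 with normexp (-0.0512) and with its next probe (-0.0101), and Rpl41 at HF75 after quantile normalization (-0.0423). HF20 against HFC had 7478 genes called with normexp and 0 otherwise. The slide block could not be fitted beside the time point and was fitted in its place, for the fit of 30 arrays; 3 slides hold 2 arrays each. The change per week had 20 genes called, 1 with normexp and 489 with array weights; late against early had 44, 3 and 270, and 9 with Day 14 and Week 0 averaged.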
